A study of Mus musculus with 2 samples.

Results

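The regulators of G protein signalling (Rgs proteins) were followed here through 10 genes, Rgs1, Rgs2, Rgs3, Rgs4, Rgs5, Rgs10, Rgs14, Rgs16, Rgs18 and Rgs19. Members were all gene spots, controls left out, to which the arrays give one of these names. They are 10 of 27962 gene names and came to 19 of 41174 gene probes, each spotted once per array. Rgs3 had 5 probes, Rgs2, Rgs4, Rgs5, Rgs18 and Rgs19 had 2 each, and Rgs1, Rgs10, Rgs14 and Rgs16 had 1 each.

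The study asked how gene expression in brown fat differs without PKGI, a protein kinase that cGMP activates and that Prkg1 encodes. The first array set brown adipose tissue of an untreated PKGI KO (PKGI-/-) mouse against that of a WT littermate. The second set brown adipocytes differentiated in vitro, PKGI KO against WT littermate. Both were on the C57BL/6N background, and each comparison is 1 two-colour Agilent array. KO RNA was labelled with Cy5 and WT RNA with Cy3 on the tissue array, and KO RNA with Cy3 and WT RNA with Cy5 on the adipocyte array. With no second array and no dye swap, no difference has a replicate check and no p-value is given. Material, dye orientation and animals cannot be told apart between the arrays. The labels give no age or sex of the mice and do not say in which cells the kinase was deleted.

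Receptors coupled to heterotrimeric G proteins signal while the G alpha subunit holds GTP. Rgs proteins bind active G alpha subunits through their RGS domain and speed the hydrolysis of GTP, which ends the signal. Rgs2 acts mainly on the Gq class, which drives phospholipase C beta and calcium release, and is a substrate of PKGI. In vascular smooth muscle its phosphorylation by PKGI is part of how cGMP lowers the response to vasoconstrictors. In brown fat, noradrenaline acts on Gs-coupled beta receptors, which raise cAMP, and on Gq-coupled alpha-1 receptors.

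Promoters are shown for the 4 members that passed 2-fold on at least 1 probe and have an entry in the RefSeq table (GRCm38.p6), since these carry the differences described below. Each runs 5′ to 3′ from 250 bases before to 50 bases after the annotated start. Capitals mark matches to the searched motifs. They are Rgs2 (chr1:144004100-144004399, minus strand), Rgs4 (chr1:169747593-169747892, minus strand), Rgs10 (chr7:128418123-128418422, minus strand) and Rgs16 (chr1:153740103-153740402, plus strand).
Rgs2: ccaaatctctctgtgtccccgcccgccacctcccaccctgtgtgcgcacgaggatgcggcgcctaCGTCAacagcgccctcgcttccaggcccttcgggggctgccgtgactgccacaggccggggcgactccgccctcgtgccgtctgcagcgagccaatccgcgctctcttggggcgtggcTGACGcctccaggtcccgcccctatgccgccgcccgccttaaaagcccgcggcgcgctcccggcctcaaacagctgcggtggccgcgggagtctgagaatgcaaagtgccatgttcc
Rgs4: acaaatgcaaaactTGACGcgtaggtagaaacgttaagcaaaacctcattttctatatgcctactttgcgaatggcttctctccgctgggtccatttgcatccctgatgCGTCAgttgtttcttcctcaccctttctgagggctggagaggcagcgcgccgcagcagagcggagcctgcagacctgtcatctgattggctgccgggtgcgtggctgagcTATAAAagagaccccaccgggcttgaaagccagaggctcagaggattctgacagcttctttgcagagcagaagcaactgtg
Rgs10: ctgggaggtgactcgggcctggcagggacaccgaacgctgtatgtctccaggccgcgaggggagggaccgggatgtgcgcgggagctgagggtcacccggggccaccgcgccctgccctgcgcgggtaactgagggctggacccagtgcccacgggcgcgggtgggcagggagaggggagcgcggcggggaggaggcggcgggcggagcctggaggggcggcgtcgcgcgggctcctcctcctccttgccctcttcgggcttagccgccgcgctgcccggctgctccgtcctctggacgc
Rgs16: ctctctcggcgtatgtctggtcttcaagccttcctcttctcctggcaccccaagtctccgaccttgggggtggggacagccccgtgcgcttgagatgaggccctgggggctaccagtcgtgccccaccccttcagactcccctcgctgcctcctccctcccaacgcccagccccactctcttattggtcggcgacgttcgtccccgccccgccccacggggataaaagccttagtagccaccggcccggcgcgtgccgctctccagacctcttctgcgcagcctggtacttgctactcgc

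The motifs searched on both strands were the cAMP response element TGACGTCA, its core TGACG, which lies within it, the TATA box TATAAA, the PPAR response element and the CArG box. The Rgs2 promoter held the core on the minus strand at positions -185 to -181 and on the plus strand at -67 to -63, counted from the start as 0. The Rgs4 promoter held it on the plus strand at -236 to -232 and on the minus strand at -141 to -137, with a TATA box at -31 to -26. No match was found in the Rgs10 and Rgs16 windows. Of 32851 promoters in the table, 20.8% held the core, 1.79% the whole element, 13.6% the TATA box, 1.63% the CArG box and 0.0396% the PPAR element. GC content was 70% for Rgs2, 53% for Rgs4, 76% for Rgs10 and 66% for Rgs16, beside a median of 52.7% over all promoters. These matches are descriptions of the letters and were not tested against the array values.

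Values are log2 ratios of KO over WT. A probe was kept when at least 1 channel was well above background, and a difference of 2-fold (1 on the log2 scale) or more is called higher or lower. Levels are log2 intensities after normalization and are compared only for the same probe. The SD between repeated spots of a probe on the same array was 0.098 in the tissue and 0.090 in the adipocytes, which covers technical spread only. As a check of the genotype, 3 of the 4 Prkg1 probes were kept, and their ratios were -1.29, -1.22 and 0.01 in the tissue and -0.94, -2.31 and 0.17 in the adipocytes. The 2 probes with lower KO signal lie at chr19:30268225-30268284 and chr19:30264319-30264378. The probe near 0, at chr19:30408200-30408259, did not rise well over background with WT RNA on either array. The labels do not say which exons the deletion removed. As a check of the labelled material, Ucp1 was read, which uncouples respiration in brown fat. Its log2 level was 15.62 in KO and 17.46 in WT tissue (ratio -1.84), and 7.20 in KO and 10.99 in WT adipocytes (ratio -3.78). All 8 brown fat markers were kept on both arrays, but in the adipocytes Elovl3 and Otop1 were kept only through the WT channel. In the tissue 1 of the 8 was higher and 4 were lower in KO, where 0.967% of all gene means were higher and 2.47% lower. The lower ones were Elovl3 at -2.14, Otop1 at -1.38 and Dio2 at -1.07 beside Ucp1. The first 3 were under 2-fold with outlier spots kept (-0.36, -0.70 and -0.17). In the adipocytes 5 of the 8 were lower, where 3.81% of all gene means were. Cidea was at -3.38 and Ppargc1a at -2.31, and Otop1 was at least 5.52-fold lower in KO, where it was not well above background.

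In brown adipose tissue all 19 Rgs probes were kept. Both Rgs2 probes were at least 2-fold higher in KO, the only ones of the family to pass, where 0.926% of all kept probes were higher and 3.36% passed 2-fold either way. No Rgs probe was 2-fold lower, where 2.44% of all kept probes were. The median over the 19 probes was 0.07, with 11 above 0 and 8 below, beside a median of 0.02 and quartiles of -0.19 and 0.20 over all kept probes. The other 17 Rgs probes lay between -0.62 and 0.82. In the adipocytes 17 of the 19 probes were kept, and both Rgs5 probes were not. Of the 17, 2 were higher in KO (1 of Rgs4 and the Rgs16 probe), where 2.07% of all kept probes were, and 4 were lower (both of Rgs2, Rgs10 and 1 of Rgs18), where 3.89% were, and 5.97% of all kept probes passed either way. Their median was -0.28, beside -0.02 over all kept probes with quartiles of -0.26 and 0.22. The 19 probes are not independent, since those of a gene share its RNA.

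**Figure D1:**
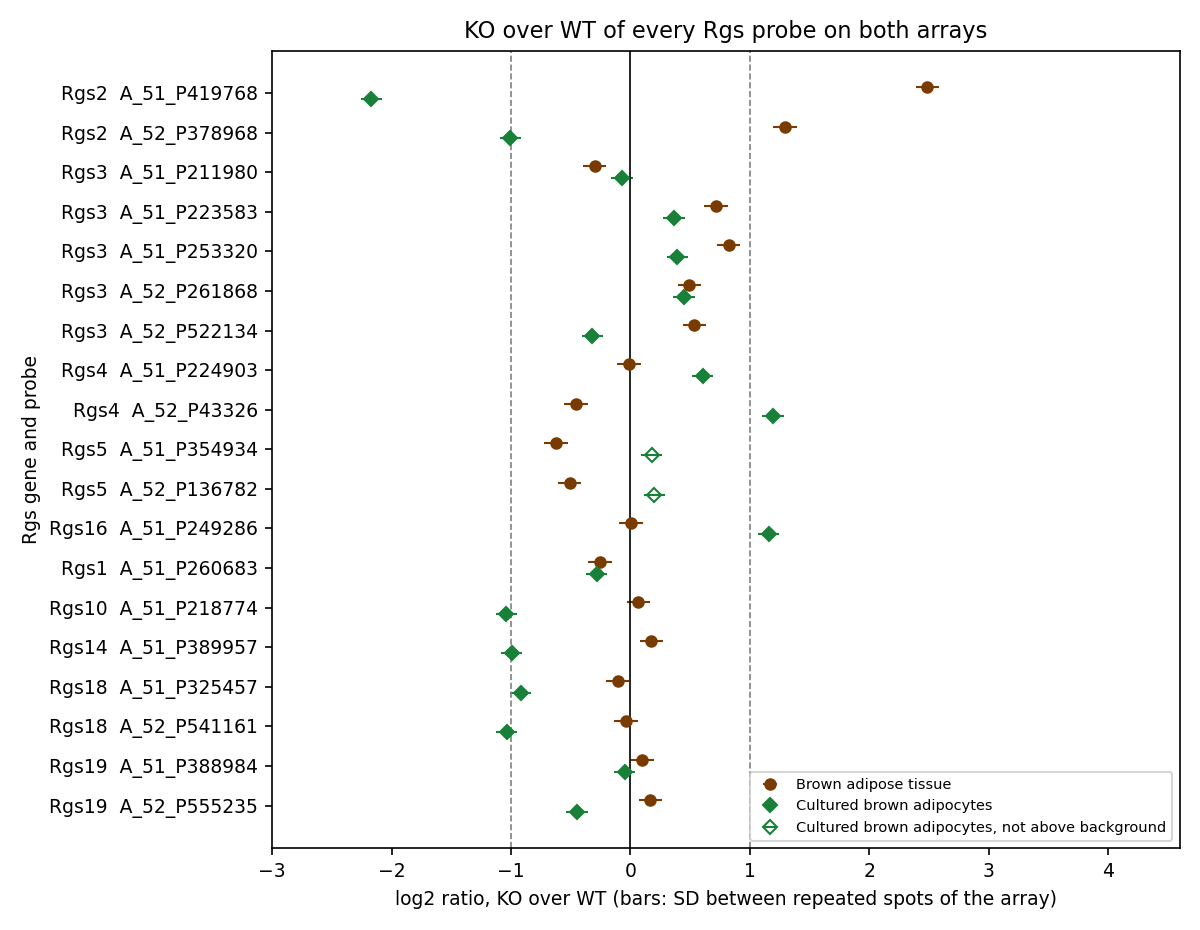
log2 ratio of KO over WT (x axis) of each of the 19 Rgs probes (y axis) in brown adipose tissue (circles) and cultured brown adipocytes (diamonds, open where neither channel was above background), with bars for the SD between repeated spots and dashed lines at 2-fold. The Rgs2 probes lie at 2.49 and 1.29 in the tissue and at -2.17 and -1.01 in the adipocytes.

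Rgs2 was the member that differed most on both arrays, in opposite directions. Its probe at chr1:143927444-143927503 had a log2 level of 16.97 in KO tissue and 14.48 in WT tissue. That is a ratio of 2.49, or 5.60-fold higher in KO, and ranked 5 from the top of 30020 kept probes. In the adipocytes the same probe had a level of 12.48 in KO and 14.65 in WT. The ratio of -2.17 ranked 154 from the bottom of 29167 kept probes. Before normalization its mean signal in the tissue was 170376 in KO and 11230 in WT, over local backgrounds of 49 and 35. In the adipocytes it was 5735 in KO and 57853 in WT, over backgrounds of 40 and 62. The signal was thus far above background in all 4 channels.

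The second Rgs2 probe, at chr1:143926378-143926437 on the same strand, was dimmer. Its level was 11.89 in KO tissue and 10.59 in WT tissue, a ratio of 1.29 or 2.45-fold. In the adipocytes it was 7.31 in KO and 8.32 in WT, a ratio of -1.01. Both probes therefore had the same direction within each material, with unequal size. The tissue ratio of this probe was under 2-fold with outlier spots kept (0.94) and with the shift to the spiked-in controls (0.45). The gene mean was 1.89 in the tissue, or 3.71-fold higher in KO, and -1.59 in the adipocytes, or 3.01-fold lower in KO. The SD between the 2 probes was 0.84 and 0.82, and over the alternatives the mean ranged from 1.05 to 2.55 in the tissue and from -2.17 to -1.59 in the adipocytes. A probe outside the member rule, which the array describes as part of a transcript similar to RGS2_MOUSE, lies at chr1:143928983-143929042. Its levels were 10.06 in KO tissue and 8.40 in WT tissue, and 6.76 in KO and 7.73 in WT adipocytes, for ratios of 1.66 and -0.97. It had the direction of the named probes on both arrays.

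Among 26629 probes kept on both arrays, 36 (0.135%) were at least 2-fold higher in KO tissue and 2-fold lower in KO adipocytes, and both Rgs2 probes were among them. The opposite pattern was found for 25 (0.0939%). Since the dyes were exchanged between the arrays, the brighter Rgs2 channel was Cy5 on both, and dye and genotype cannot be told apart for it. Xist, the transcript of the inactive X chromosome in females, had the same signs as Rgs2. Its mean was 4.41 over 3 probes in the tissue and -3.36 over 4 probes in the adipocytes. In the tissue 4 of 5 Y-linked genes were lower in KO, where 2.47% of all gene means were. Eif2s3y was at least 84.7-fold lower, Jarid1d at least 4.44-fold and Uty at least 2.48-fold, each not well above background in KO, where the bound is set by the signal measured there. Ddx3y was at -3.56, and Zfy1 at -0.05 with WT not well above background. In the adipocytes all 5 lay between -0.12 and 0.61. Xist and Eif2s3y were both well above background in WT adipocytes, at mean log2 levels of 10.05 and 12.39. The part of these values in the Rgs2 difference was not tested. Skeletal muscle markers were lower in KO tissue for 8 of 8 genes (median -3.07), where 2.47% of all gene means were. Their summed intensity was 65560.5 in KO and 411376 in WT. The largest ratios were those of the sarcomere genes Tnnt1 (-3.31), Actn2 (-3.27), Myh2 (-3.22) and Myh7 (-3.21). In the adipocytes 1 of the 7 kept passed, Acta1 at 1.52. Fat cell markers were lower in KO adipocytes for 8 of 8 genes (median -4.80), where 3.81% of all gene means were. Their summed intensity was 11492 in KO and 489839 in WT. Cfd, a secreted protease, was at -5.67, the fatty acid carrier Fabp4 at -5.58, the lipid droplet protein Cidec at -5.48 and the hormone Adipoq at -5.22. In the tissue 1 of the 8 passed, Cfd at 1.78 (0.94 with the shift to the spiked-in controls). Their part was not tested either. In such bulk RNA, fewer cells of a type and less RNA per cell cannot be told apart.

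**Figure D2:**
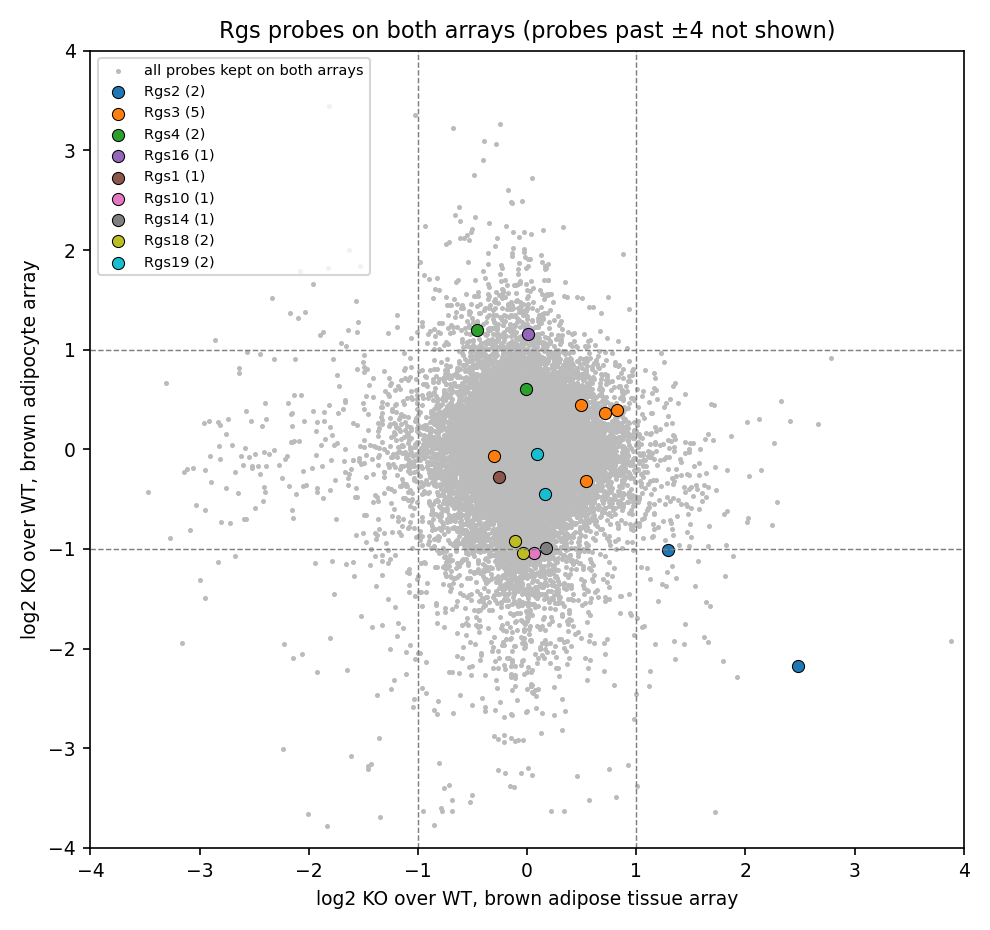
log2 ratio of KO over WT in brown adipocytes (y axis) against that in brown adipose tissue (x axis) for the probes kept on both arrays (grey) and the Rgs probes among them (coloured by gene), with dashed lines at 2-fold. The 23 probes outside the axes are not drawn. Both Rgs2 probes lie at the lower right, and Rgs5 is not drawn because it was not kept in the adipocytes.

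Rgs3 acts on Gi and Gq and has long and short forms, and its probes had both signs on each array. Whether its transcript variants differ was not tested. Its 5 probes span chr4:62093420-62135862. The 4 probes assigned to transcript variant 2 were higher in KO tissue by 0.72, 0.82, 0.49 and 0.54, and the probe of variant 1 was at -0.30. The 4 turned to between -0.35 and -0.02 with the shift to the spiked-in controls, and the variant 1 probe to 0.26 without loess. None passed 2-fold, while without loess the 4 passed it at between 1.03 and 1.38. The brightest of them had a level of 12.12 in KO tissue and 11.30 in WT tissue, and the variant 1 probe 11.92 in KO and 12.22 in WT. In the adipocytes the variant 2 probes were at 0.36, 0.39, 0.45 and -0.32 in the same order. The first 3 were between -0.01 and 0.05 without loess. The variant 1 probe was at -0.07 there, with levels of 7.05 in KO and 7.12 in WT. Its level was higher in tissue than in adipocytes by 4.87 in KO and 5.10 in WT, while the variant 2 probes were higher by between 2.16 and 2.63 in KO and between 1.30 and 2.20 in WT. The gene mean was 0.45 in the tissue and 0.16 in the adipocytes.

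Rgs4, Rgs5 and Rgs16 are small Rgs proteins that are degraded through the N-end rule pathway, which reads an oxidised and arginylated amino terminus. Rgs4 had levels of 9.16 in KO tissue and 9.62 in WT tissue on its brighter probe (ratio -0.46), and of 8.09 in KO and 6.89 in WT adipocytes (ratio 1.20, 2.29-fold). Its other probe was at -0.01 in the tissue, where the WT channel was not well above background, and at 0.60 in the adipocytes. That probe was at 0.42 in the tissue and 1.32 in the adipocytes both in the deposited table and in Feature Extraction's ratios. On the brighter probe the channel with the higher normalized level was Cy3 on both arrays, so dye and genotype cannot be told apart. Its adipocyte ratio was 0.97 with the shift to the spiked-in controls.

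Rgs16 had equal levels in the tissue, 7.88 in KO and 7.88 in WT (ratio 0.01). In the adipocytes it had 10.36 in KO and 9.20 in WT, a ratio of 1.16 or 2.23-fold. That ratio was under 2-fold without loess (0.74) and with the shift to the spiked-in controls (0.94). Rgs5, a marker of pericytes and vascular smooth muscle, was lower in KO tissue on both probes, without passing 2-fold. Its levels were 10.49 in KO and 11.11 in WT on one probe (ratio -0.62) and 12.17 in KO and 12.68 in WT on the other (ratio -0.51, but 0.07 without loess). In the adipocytes both Rgs5 probes were not well above background in either channel, with levels of 6.29 in KO and 6.11 in WT on the first and 6.38 in KO and 6.18 in WT on the second.

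Beside Rgs5, none of the 7 pericyte markers kept in the tissue passed 2-fold. Their median was -0.16, within a range of -0.57 (Abcc9) to 0.46 (Pdgfrb), and their summed intensity was 40513.2 in KO and 41415.1 in WT. In the adipocytes 7 pericyte markers were kept, and Higd1b was not well above background. Their median was 0.21, and Kcnj8, a subunit of an ATP-sensitive potassium channel, was higher in KO at 1.52 (0.84 with no brightness filter). Smooth muscle markers were higher in KO adipocytes for 5 of 8 genes, where 2.15% of all gene means were. Their median was 1.40, and their summed intensity was 368125 in KO and 96886.2 in WT. Cnn1 (2.75) and Tagln (2.62), both proteins of the contractile apparatus, had the largest ratios, followed by Myl9 (1.70) and Lmod1 (1.55). In the tissue 1 of the 8 was lower (Des, -1.45, but -0.75 with outlier spots kept) and the median was -0.56. None of the endothelial markers passed on either array. The 8 kept in the tissue had a median of -0.35, with Eng at -0.54 and Cldn5 at -0.45 (0.03 and 0.29 without loess). The 6 kept in the adipocytes had a median of -0.17, with Eng at 0.70 and Kdr at -0.64. Emcn and Tie1 were not well above background there. The part of these markers in the Rgs values was not tested.

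Rgs1, Rgs10, Rgs14, Rgs18 and Rgs19 are best known from blood and immune cells. Rgs1 limits chemokine receptor signalling in lymphocytes, Rgs10 acts on Gi and is abundant in macrophage-like cells, Rgs14 acts on Gi and also binds inactive Gi through a second motif, Rgs18 is abundant in platelets, and Rgs19 (GAIP) acts on Gi. None passed 2-fold in the tissue, where their 7 probes lay between -0.26 and 0.18. In the adipocytes all 7 were below 0, except that 1 Rgs19 probe was at 0.085 in Feature Extraction's ratios and in the deposited table.

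Rgs10 had a level of 12.70 in KO adipocytes and 13.74 in WT adipocytes, a ratio of -1.04 or 2.06-fold lower. It was at -0.93 in Feature Extraction's ratios. In the tissue its level was 11.01 in KO and 10.95 in WT. Rgs14 was just under the threshold in the adipocytes at -0.996, or 1.99-fold lower, with levels of 9.04 in KO and 10.03 in WT. The 2 Rgs18 probes lay on either side of the threshold there at -0.92 and -1.04, with levels of 7.40 and 7.45 in KO and 8.32 and 8.48 in WT. Rgs18 was dim in the tissue, at 7.18 and 7.17 in KO and 7.29 and 7.20 in WT. Its gene mean was -0.98 in the adipocytes and -0.07 in the tissue.

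Rgs1 was lower in KO by less, at -0.28 in the adipocytes, with levels of 9.40 in KO and 9.68 in WT. In the tissue its level was 6.31 in KO and 6.57 in WT, where the WT channel was not well above background, and the ratio was -0.26. The same Rgs1 probe was lower in KO tissue than in KO adipocytes, with a difference (tissue minus adipocytes) of -3.08. Rgs19 had ratios of -0.05 and -0.45 in the adipocytes and 0.10 and 0.17 in the tissue, and the levels of its probes in tissue minus those in adipocytes were between -0.61 and -0.52 in KO and between -1.22 and -0.67 in WT.

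Of the macrophage markers, 9 of 12 were at least 2-fold lower in KO adipocytes, where 3.81% of all gene means were. Their median was -1.65 within a range of -3.63 to -0.59, and their summed intensity was 93614.5 in KO and 457660 in WT. Clec7a (-3.63), a receptor for fungal glucans, and Ctss (-2.92), a lysosomal protease, had the largest ratios, followed by Lyzs (-2.06) and Fcgr1 (-1.97), and all 12 were well above background. In the tissue none of the 12 passed 2-fold, with Aif1 at -0.45 and Cd68 at -0.32, the median was -0.05, and the summed intensity was 40549.5 in KO and 43661.1 in WT. All 9 lymphocyte markers were kept in the tissue, with a median of -0.08, and 1 was lower in KO, the T cell receptor chain Cd3g at -1.05 (-0.08 with outlier spots kept). Of these 9, Cd2, Cd3d, Cd79a and Cd79b were not well above background in the adipocytes, and the other 5 had a median of -0.20, with Lck at 0.30 and Ms4a1 at -0.48 (KO not well above background). Of the platelet markers, Gp1ba was not well above background there, and the 5 kept had a median of -0.19, with Cxcl4 at -0.47 and Gp9 at -0.41 (KO not well above background). In the tissue 6 platelet markers had a median of 0.03, with Gp9 at -0.49 and Cxcl7 at 0.43, and none passed. The part of macrophage RNA in the lower Rgs10, Rgs14 and Rgs18 ratios was not tested.

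**Figure D3:**
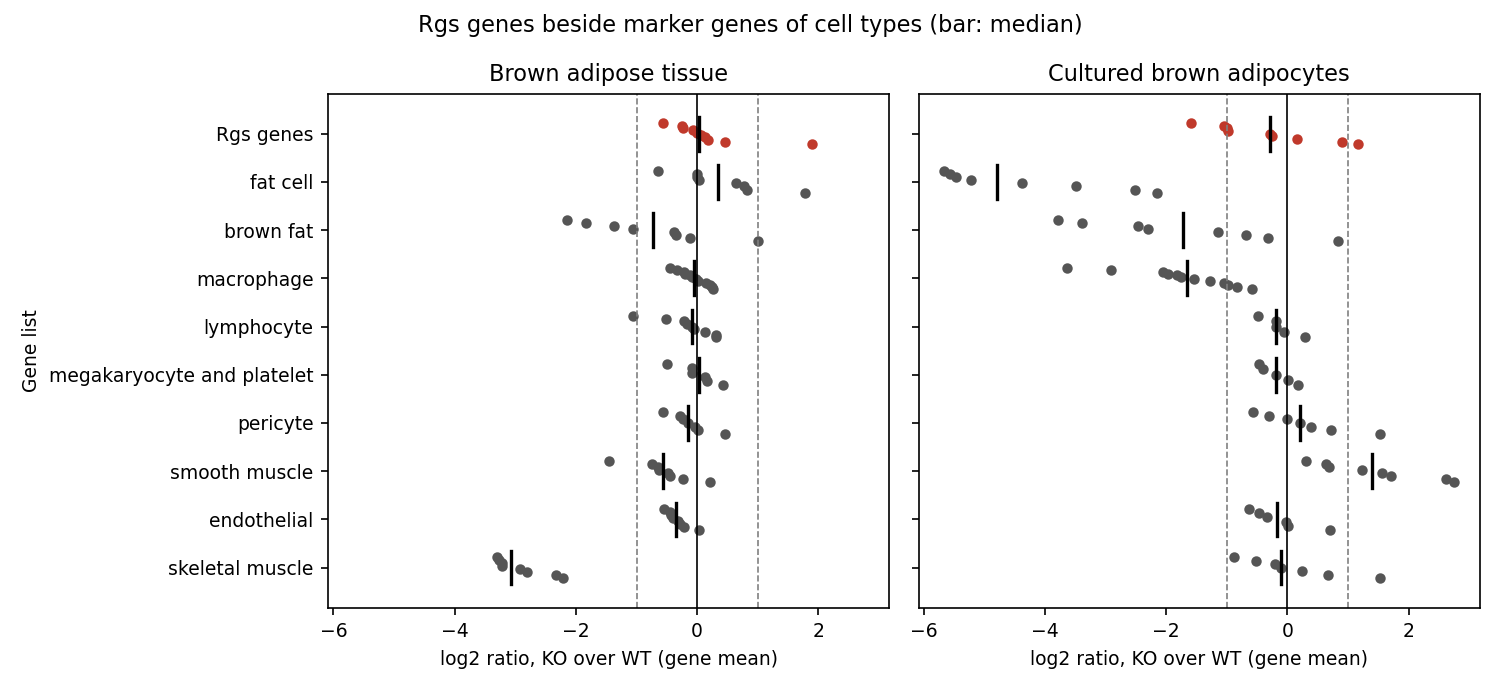
log2 ratio of KO over WT (x axis, gene means) for the Rgs genes beside marker genes of macrophages, pericytes, smooth muscle and other cell types in brown adipose tissue and cultured brown adipocytes, with a bar at each median and dashed lines at 2-fold. In the adipocytes the macrophage median is -1.65 and the smooth muscle median 1.40.

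Other genes of the same signalling steps were read from lists. Of 15 other RGS genes and their binding partners, 8 were kept on each array and none passed 2-fold. They had a median of 0.13 in the tissue, where 0.967% of all gene means were higher and 2.47% lower, and of 0.22 in the adipocytes, where 2.15% were higher and 3.81% lower. Rgs17, which acts on Gi and Gz, was nearest to the threshold at 0.86 in the adipocytes, with a level of 10.89 in KO and 10.04 in WT. Its tissue signal was not well above background. Rgs9bp, the membrane anchor of Rgs9, was at 0.37 in the tissue (-0.48 with the shift to the spiked-in controls) and -0.38 in the adipocytes, where KO was not well above background. Gnb5, the beta subunit that binds a class of Rgs proteins, was at -0.31 in the tissue. Of 11 other proteins with an RGS homology domain, 1 was lower in KO tissue and none passed in the adipocytes. Axin2, a scaffold that promotes beta-catenin breakdown, was at -1.07 in the tissue, between -1.91 and -0.20 over the alternatives, and at -0.73 in the adipocytes. Adrbk2, a receptor kinase, was at -0.999 in the adipocytes, just short of the threshold, with probes of both signs (-2.22 to 0.22).

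No G alpha subunit of 13 passed 2-fold in the tissue. Gnas, the stimulatory subunit, was at -0.56, with 6 probes of both signs (-1.20 to 0.12). Gnai2, an inhibitory subunit, was at -0.28 (0.29 without loess). In the adipocytes 1 of 13 was higher, Gna14 of the Gq class, at 1.01 (0.79 with the shift to the spiked-in controls). Gnaq and Gna11, the main G alpha targets of Rgs2, were at 0.23 and 0.06 in the tissue and at -0.19 and 0.13 in the adipocytes. Of 12 beta and gamma subunits none passed in the tissue, where Gng2 was at -0.63 and Gng11 at -0.51, and Gng8 (1.06) and Gng10 (1.03) were higher in KO adipocytes, each past 2-fold in 6 of 8 alternatives.

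Among 12 phospholipase C beta and Gq effector genes none passed in the tissue, where the calcium channel gene Itpr1 was at -0.68 and Plcb1 at 0.29, and 3 were lower in KO adipocytes. Plcb1, the phospholipase that Gq activates, was at -1.18, Prkcb1, a protein kinase C that diacylglycerol activates, at -1.10, and Itpr2, a calcium channel opened by inositol trisphosphate, at -1.05. The means of Plcb1 and Prkcb1 passed 2-fold in 8 of 8 alternatives and that of Itpr2 in 7, all from the same array. The probes were uneven, and each mean includes a probe short of 2-fold. The 4 of Plcb1 ran from -1.996 to -0.104, at a mean log2 level of 6.80 in KO and 7.98 in WT. Those of Prkcb1 ran from -1.28 to -0.92 and those of Itpr2 from -1.53 to -0.74. Of 19 kept receptors for vasoconstrictors, platelet and chemotactic signals, F2r (thrombin receptor) was higher in KO adipocytes at 1.37 (0.95 without loess) and P2ry6 (UDP receptor) lower at -1.14, and none passed in the tissue. The largest tissue ratio was that of Adra1a, an alpha-1 adrenergic receptor, at -0.86 (-0.15 with outlier spots kept). Avpr1a, a vasopressin receptor, was at 0.56 (-0.29 with the shift to the spiked-in controls).

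None of the 5 N-end rule and arginylation genes passed on either array. Ubr1, a ubiquitin ligase that recognises the modified amino termini of Rgs4, Rgs5 and Rgs16, was at 0.28 in the tissue and -0.22 in the adipocytes. Metap2, a methionine aminopeptidase, was at 0.14 in the tissue, and Ubr2, a relative of Ubr1, at -0.29 in the adipocytes. The list median was 0.12 in the tissue and -0.14 in the adipocytes. Regulators of G proteins without an RGS domain gave no difference past 2-fold either, with Rap1gap at -0.80 and Pcp2 at 0.38 in the tissue and Gpsm3 at -0.87 and Gpsm1 at 0.79 in the adipocytes.

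**Figure D4:**
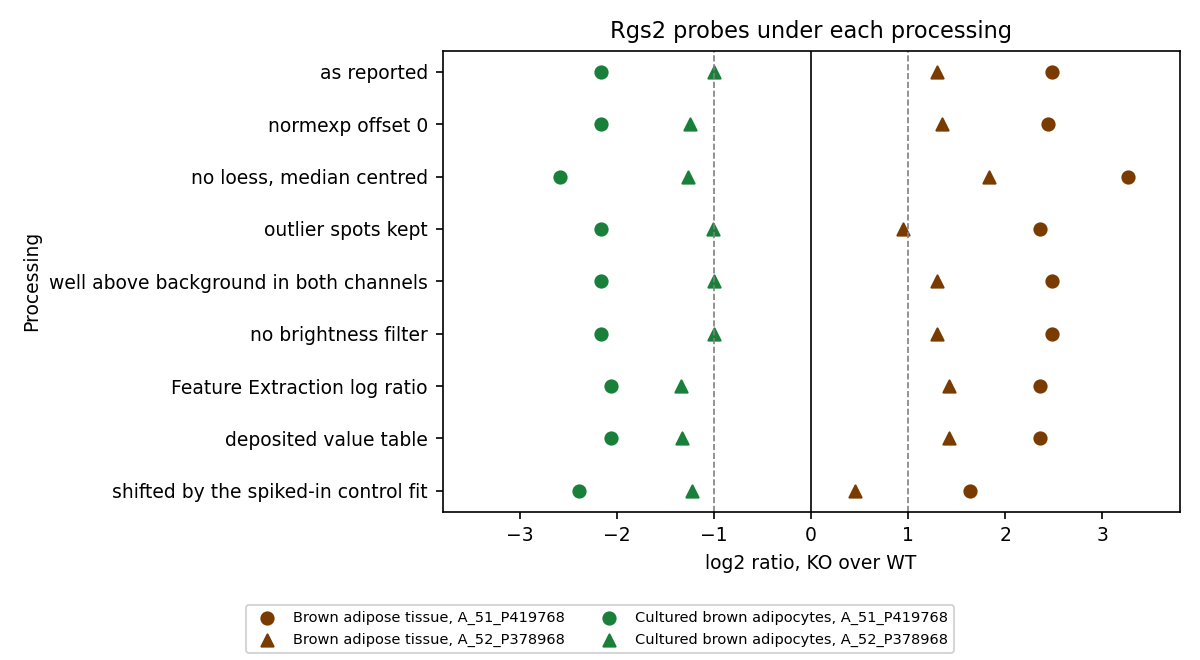
log2 ratio of KO over WT (x axis) of the Rgs2 probes under the processing used and each alternative (y axis) in brown adipose tissue and cultured brown adipocytes, with dashed lines at 2-fold. The brighter probe stays between 1.64 and 3.26 in the tissue and between -2.59 and -2.06 in the adipocytes, and the dimmer one between 0.45 and 1.83 and between -1.34 and -1.01.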

How the data were processed

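PKGI KO and WT RNA, from brown adipose tissue and from cultured brown adipocytes, was compared on 2 two-colour arrays (45018 spots each, 1639 of them controls). The deposited scanner output of Agilent Feature Extraction 9.5.1.1 gives, per the file headers, each spot's intensity (mean and local background of each dye) and a log10 ratio (red over green). Log10 ratios also fill the value table that the authors deposited. Set against the scanner files, these were the same ratio as KO over WT, within 0.0165 on the log2 scale. Its medians were 0.09 in the tissue and 0.02 in the adipocytes, with 7623 and 6968 gene spots left empty, all at a ratio of 0. A second deposited copy of each array differed by at most 0.498% and entered no result. No source used here names the genome build behind the probe coordinates.

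Ratios were computed with limma 3.58.1 in R 4.3.3. Spots with an outlier flag in either dye (1215 gene spots in the tissue, 203 in the adipocytes) were left out, as in earlier work on these files. Background was corrected by normexp (saddle, offset 50), followed by loess within each array, in which controls had weight 0. Per-channel levels were then scaled between arrays (Aquantile). Repeated spots were averaged. A probe needed 1 channel or more well above background, and kept probes were averaged per gene. Of gene spots, 74.1% were above background in KO and 63.1% in WT tissue, and 68.1% in KO and 70.1% in WT adipocytes. With 1 array per comparison the number of arrays limits the precision and no test was run. The steps were tested on simulated data in which only bright spots were changed, so dim probes and differences between the dyes were not covered.

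All members and their probes are named, and of each other list the genes past 2-fold (at most 4 per array) or else the 2 with the largest ratios. Gnaq, Gna11 and the genes of the X and Y chromosomes were chosen after their values were seen. The members and lists were chosen with earlier results of these data known. Alternatives were offset 0, no loess, Feature Extraction's ratio, the deposited table, outlier spots kept, 2 other brightness filters and the brightest probe per gene. A shift to the spiked-in controls, by Feature Extraction's own fitted intercept, was chosen after seeing the data. List genes are named as on the array, where some names are old (Adrbk2 is now Grk3, Prkcb1 is Prkcb, Lyzs is Lyz2, Cxcl4 is Pf4, Cxcl7 is Ppbp, Jarid1d is Kdm5d). Promoters are from RefSeq, where 7 of 10 members had an entry.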

Additional observations from a re-analysis of the deposited data

Results flagged for a closer look

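Rgs2 had opposite directions in the 2 materials, with a gene mean of 1.89 in the tissue and -1.59 in the adipocytes (log2, KO over WT). The gene mean of Rgs4 was -0.24 in the tissue and 0.90 in the adipocytes. Its tissue value rests on 1 probe (-0.46), the other being at -0.01 with WT not well above background. The SD between the 2 Rgs4 probes was 0.31 in the tissue, larger than the size of the mean there, and 0.42 in the adipocytes. The Rgs4 tissue mean was -0.05 with outlier spots kept, -0.07 in Feature Extraction's ratios and in the deposited table, and -0.14 without loess. As first computed all 4 values lie outside 2 times the SD between repeated spots (0.196 in the tissue, 0.180 in the adipocytes), which covers technical spread only, and those 4 alternative values of Rgs4 lie within it. The difference between the materials was not tested, since each has 1 array, and dye orientation and material cannot be told apart.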

How the results depend on the processing

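Each comparison is 1 array, so none was left out. Signal over background limits Rgs5 in the adipocytes (both probes not well above it), and Rgs1 and 1 Rgs4 probe in WT tissue. No paired analysis was possible because each group is 1 array and no test was run. The planned centring on the expected ratio of each spiked-in control was not run, since no expected ratio per spot was found in the files. The shift by Feature Extraction's fitted intercept (0.84 in the tissue, 0.22 in the adipocytes) took its place.

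In the tissue 2 Rgs probes passed 2-fold (2 higher, 0 lower), against 6 (6 higher, 0 lower) without loess, 1 (1 higher, 0 lower) with outlier spots kept and 6 (1 higher, 5 lower) with the spiked-in shift. The Rgs median of 0.07 was 0.41 without loess, 0.17 in Feature Extraction's ratios, 0.17 in the deposited table and -0.78 with the shift. Of all tissue probes, 1010 passed (278 higher, 732 lower), against 2614 (909, 1705) with offset 0, 2374 (1542, 832) without loess, 250 (82, 168) with outlier spots kept, 4978 (3108, 1870) in Feature Extraction's ratios, 4965 (3100, 1865) in the deposited table and 8523 (25, 8498) with the shift. The higher share of the calls was 27.5%, against 65.0% without loess and 62.4% in Feature Extraction's ratios. In the adipocytes the 6 Rgs probes (2 higher, 4 lower) were 6 (0, 6) with the shift, 7 (1, 6) without loess, 8 (2, 6) with offset 0 and 7 (3, 4) both in the deposited table and in Feature Extraction's ratios. The Rgs median of -0.28 was -0.70 without loess, -0.071 with no brightness filter, -0.19 in Feature Extraction's ratios, -0.19 in the deposited table and -0.50 with the shift. All adipocyte probes gave 1740 (605, 1135), against 2688 (287, 2401) without loess, 3214 (1409, 1805) in Feature Extraction's ratios and 3204 (1404, 1800) in the deposited table. The higher share was 34.8%, against 10.7% without loess and 15.8% with the shift. The median over all probes was 0.02 in the tissue (0.25 without loess, -0.83 with the shift) and -0.02 in the adipocytes (-0.26 and -0.24). The cause of these differences was not tested. Probes and gene means counted together gave 12 Rgs values past 2-fold. These are not separate results, since the means repeat the probes, and Rgs10 and Rgs16 have 1 probe each. All 12 kept their sign in all alternatives run and 6 stayed past 2-fold. Those 6 were values of Rgs2 and of 1 Rgs18 probe.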
